A study of Saccharomyces cerevisiae with 48 samples.

Results

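The regions described here are the 1-kb bins that lie within 10 kb of the 16 centromeres of budding yeast. They were chosen by position alone, from the distance between a bin's midpoint and the centromere, and 315 of the 11338 bins with a value in at least 1 sample qualified. Each centromere contributed 20 bins except CEN6 with 15, because 5 bins on the left side of CEN6 have no value in the files used here and were not analysed. The study followed DNA replication by whole genome sequencing in 4 strains, with 1 G1 sample and 11 timepoints between 5 and 60 min after release for each strain. Cells were arrested in G1 with alpha factor, given galactose and released into S-phase in galactose medium. Copy number was expressed as the ratio of reads at a timepoint to reads in G1, and the replication time of a bin, Trep, is the moment, in minutes from release, when a sigmoid fitted to its ratios passes 1.5.

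All 4 strains are haploid MATa cells of the W303a background and carry can1-100, leu2-3, 112 and his3-11, 15 together with trp1-1, ura3-1, ade2-1 and rad5-535. All also lack SML1, the inhibitor of ribonucleotide reductase, so that the comparisons below are never with a strain that has it. The sml1∆ SSDDCS strains (sml1∆ marked with HphNT) over-express the replication factors Sld2, Sld3-A, Dpb11, Dbf4-A, Cdc45 and Sld7 from the galactose-inducible promoter PGAL1-10, with Sld7 and Cdc45 at leu2, Sld3-A and Dbf4-A at his3, and Sld2 and Dpb11 at trp1. The sml1∆ strains (sml1∆ marked with URA3) hold none of these constructs and received galactose as well. Each kind of strain was made in an ARS1008∆ ARS1009∆ background, which lacks a pair of origins on chromosome X, and in an ARS816∆ ARS818∆ background, which lacks a pair on chromosome VIII. ARS1008 and ARS1009 lie 232 and 208 kb from CEN10 and ARS818 lies 287 kb from CEN8. TRP1 lies 12.4 kb from CEN4 and LEU2 22.5 kb from CEN3, so that these loci flank the regions described but are outside them.

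The centromeres of budding yeast are point centromeres, short DNA elements that assemble a single kinetochore. CDEI is bound by Cbf1, CDEII is an AT-rich spacer on which the centromeric nucleosome forms, and CDEIII is bound by the CBF3 complex. The Ctf19 complex of the kinetochore brings Dbf4, the regulatory subunit of the Cdc7 kinase that licensed origins need in order to fire, to the neighbourhood of the centromere, and centromeric DNA is known as early replicating in this organism.

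The sequences of the 3 centromeres that replicated earliest and the 3 that replicated latest, by the mean of the 4 strains, are shown because they are the fixed points from which all distances below were taken. They come from the RefSeq annotation of the R64 assembly, are written 5′ to 3′ on the annotated strand, and have the ends that hold CDEI (left) and CDEIII (right) in capitals. The early group is CEN1 at chrI:151465-151582 (plus strand), CEN13 at chrXIII:268031-268149 (plus strand) and CEN12 at chrXII:150828-150947 (minus strand).
CEN1: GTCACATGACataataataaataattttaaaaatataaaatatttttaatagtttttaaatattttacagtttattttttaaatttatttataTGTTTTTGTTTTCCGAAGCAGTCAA
CEN13: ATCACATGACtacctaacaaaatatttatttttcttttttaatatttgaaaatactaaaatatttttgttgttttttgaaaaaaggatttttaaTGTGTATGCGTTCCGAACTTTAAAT
CEN12: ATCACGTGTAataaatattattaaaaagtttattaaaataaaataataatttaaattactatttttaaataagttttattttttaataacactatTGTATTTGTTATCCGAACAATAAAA
The late group is CEN16 at chrXVI:555957-556073 (plus strand), CEN8 at chrVIII:105586-105703 (minus strand) and CEN6 at chrVI:148510-148627 (plus strand).
CEN16: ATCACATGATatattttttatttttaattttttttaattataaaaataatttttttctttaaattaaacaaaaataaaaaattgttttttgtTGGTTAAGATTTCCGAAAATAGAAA
CEN8: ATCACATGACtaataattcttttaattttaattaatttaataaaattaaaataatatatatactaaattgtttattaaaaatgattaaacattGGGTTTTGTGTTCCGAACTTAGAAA
CEN6: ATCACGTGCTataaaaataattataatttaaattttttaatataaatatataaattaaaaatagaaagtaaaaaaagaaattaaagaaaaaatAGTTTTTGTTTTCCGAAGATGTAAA
The 16 annotated centromeres are 111 to 120 bases long, with a CDEII of 76 to 85 bases that is 86.9 to 97.6% A or T. The CDEI core TCACNTG, searched on both strands, was found in 16 of 16 centromeres and in 4.0% of all 118-base windows of the genome. The CDEIII core TTCCGAA, searched on both strands and not overlapping CDEI, was found in 14 of 16 centromeres and in 1.39% of windows, and the windows at CEN4 and CEN12 do not hold these letters. A match is a description of the letters only, and both the early and the late group hold the CDEI core in every member.

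The ratios before fitting show how the centromere bins gained copies beside the other bins. They were scaled by the bulk DNA content of each sample, so their level follows that scaling. At 20 min after G1 release the mean ratio over the 16 centromeres was 1.72 ± 0.0759 in sml1∆ SSDDCS ARS1008∆ ARS1009∆ (SD over 16 centromeres), against 1.64 at all other bins of that sample. At the same time it was 1.81 ± 0.0869 in sml1∆ ARS1008∆ ARS1009∆, against 1.45 at all other bins. The excess over the rest of the genome was thus 0.0770 with SSDDCS over-expression and 0.364 without it. In the ARS816∆ ARS818∆ background at 20 min, the centromere bins were at 1.55 ± 0.0567 with SSDDCS, against 1.49 at other bins, and at 1.44 ± 0.0643 without SSDDCS, against 1.29 at other bins. This time course ran later, and the excess in its sml1∆ strain was larger at 25 min (0.270) and 30 min (0.282), when the SSDDCS strain had an excess of 0.0948 and 0.0762.

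At 5 and 10 min the centromere bins of all 4 strains lay close to the other bins, with differences between -0.0223 (10 min in sml1∆ ARS1008∆ ARS1009∆) and 0.00893 (10 min in sml1∆ ARS816∆ ARS818∆). The centromeres of the sml1∆ strains were above the other bins by 0.133 (ARS1008∆ ARS1009∆) and 0.0253 (ARS816∆ ARS818∆) at 15 min, when those of the SSDDCS strains differed by 0.00659 and -0.0154. The relative copy number, which is the ratio divided by the genome median of the same sample and so does not depend on the bulk scaling of a sample, averaged 1.02 ± 0.0298 over 10 to 25 min in sml1∆ SSDDCS ARS1008∆ ARS1009∆ and 1.13 ± 0.0306 in sml1∆ ARS1008∆ ARS1009∆ (SD over 16 centromeres). It averaged 1.01 ± 0.0230 in sml1∆ SSDDCS ARS816∆ ARS818∆ and 1.09 ± 0.0290 in sml1∆ ARS816∆ ARS818∆. With SSDDCS this average exceeded 1 by less than the spread between centromeres, and without SSDDCS by more. At single timepoints the SSDDCS strains did exceed that spread, with an excess over other bins at 25 min of 0.0889 (SD over centromeres 0.0487) in ARS1008∆ ARS1009∆ and 0.0948 (SD 0.0491) in ARS816∆ ARS818∆.

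**Figure D1:**
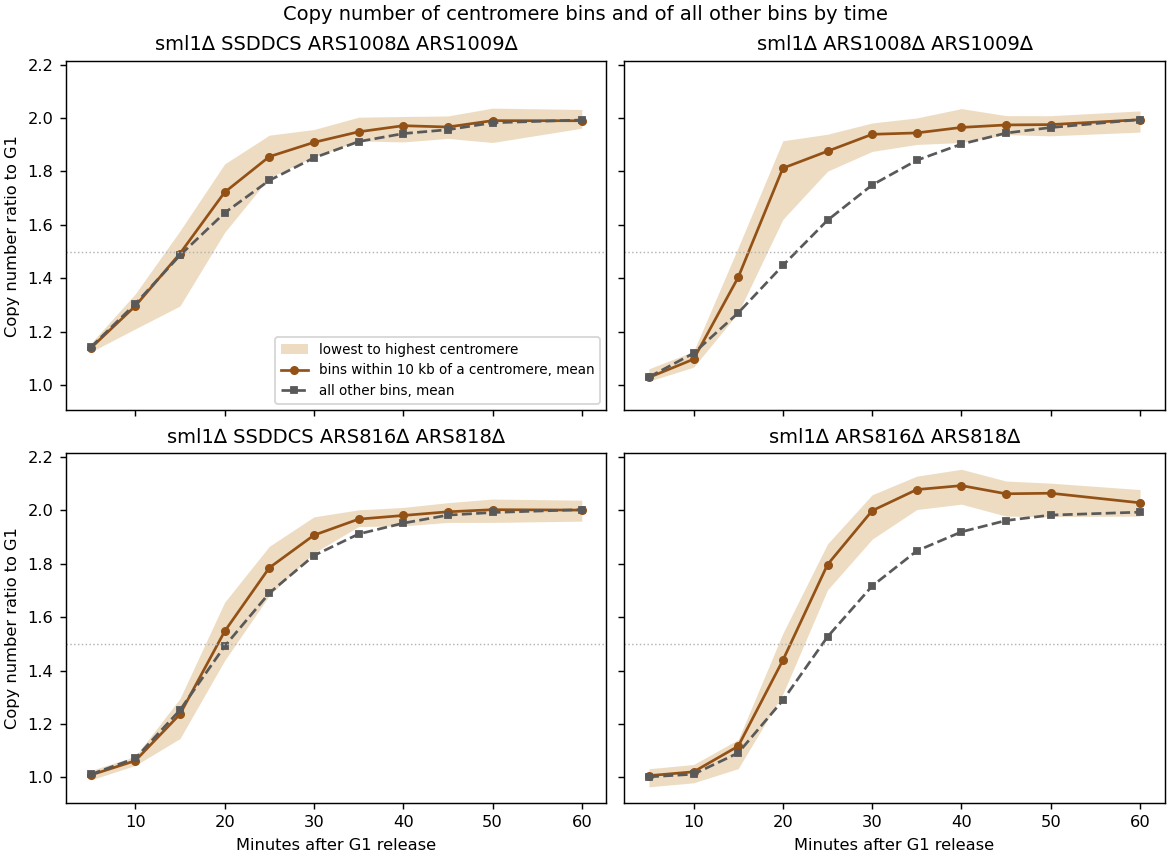
Copy number ratio to G1 (y axis) against minutes after G1 release (x axis) in each strain, as the mean of the bins within 10 kb of a centromere with the range of the 16 centromeres (band) and the mean of all other bins (dashed). In the sml1∆ strains the centromere curve pulls away from the other bins after 10 min, by 0.364 at 20 min in ARS1008∆ ARS1009∆, whereas in the sml1∆ SSDDCS strains the curves stay within 0.0948 of each other.

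Late in the time course, 1 strain differed from the others. Between 35 and 60 min the centromere bins averaged 2.06 in sml1∆ ARS816∆ ARS818∆, above the ratio of 2 that complete replication gives, against 1.94 at the other bins, with the highest mean of 2.09 at 40 min. In the same window they averaged 1.97 in sml1∆ SSDDCS ARS1008∆ ARS1009∆, 1.97 in sml1∆ ARS1008∆ ARS1009∆ and 1.99 in sml1∆ SSDDCS ARS816∆ ARS818∆. In sml1∆ ARS816∆ ARS818∆, 227 of 314 centromere bins (72.3%) had a mean ratio above 2 over these timepoints, where 32.2% of all bins did. The shares in the other strains were 34.4% with a background of 29.4% in sml1∆ SSDDCS ARS1008∆ ARS1009∆, 36.8% with a background of 23.3% in sml1∆ ARS1008∆ ARS1009∆, and 41.1% with a background of 33.7% in sml1∆ SSDDCS ARS816∆ ARS818∆. Early bins away from centromeres (those in the earliest 20% of the other sml1∆ strain and over 20 kb from any centromere) were also above 2 on average in sml1∆ ARS816∆ ARS818∆, at 2.03. The share of centromere bins with a fit residual (root mean square) over 0.15 was 11.1% in this strain, against 2.53% of all other bins, and 0 to 3.49% in the other strains, against 0.762 to 1.96% of all other bins.

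In the fitted Trep values the centromere bins were mostly within the early part of the genome in the sml1∆ strains and close to its middle in the sml1∆ SSDDCS strains. The median Trep of the centromere bins in sml1∆ SSDDCS ARS1008∆ ARS1009∆ was 15.1 min (interquartile range 13.3 to 17.2 min, 314 bins), against 16.1 min at all other bins. In sml1∆ ARS1008∆ ARS1009∆ it was 16.1 min (15.1 to 17.6 min, 315 bins), against 22.4 min at all other bins. The centromere bins were 19.6 min (18.5 to 21.0 min, 314 bins) in sml1∆ SSDDCS ARS816∆ ARS818∆, against 20.7 min elsewhere, and 20.8 min (19.8 to 21.9 min, 314 bins) in sml1∆ ARS816∆ ARS818∆, against 25.4 min elsewhere. The median of the centromere bins thus differed from that of the other bins by -0.98 and -1.09 min with SSDDCS and by -6.35 and -4.64 min without, in ARS1008∆ ARS1009∆ and ARS816∆ ARS818∆. Each strain was followed once, so no difference between strains has a replicate check, and the SDs over bins or centromeres given here describe the spread along the genome and not that between cultures.

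Ranks within a strain, which a shift of a whole time course does not change, gave the same picture. In sml1∆ ARS1008∆ ARS1009∆, 245 of 315 centromere bins (77.8%) were in the earliest 20% of all bins, where the background is 20.0% by construction, and in sml1∆ ARS816∆ ARS818∆, 240 of 314 (76.4%) were, with the same background of 20.0%. In sml1∆ SSDDCS ARS1008∆ ARS1009∆ the count was 77 of 314 (24.5%) and in sml1∆ SSDDCS ARS816∆ ARS818∆ 71 of 314 (22.6%), close to the background of 20.0% in each. The median percentile of the centromere bins was 40.5 and 36.9 in the SSDDCS strains and 9.88 and 10.5 in the sml1∆ strains of the ARS1008∆ ARS1009∆ and the ARS816∆ ARS818∆ background. By centromere, the median percentile of its bins was between 18.2 and 71.7 in the SSDDCS strains and between 4.02 and 26.9 in the sml1∆ strains.

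**Figure D2:**
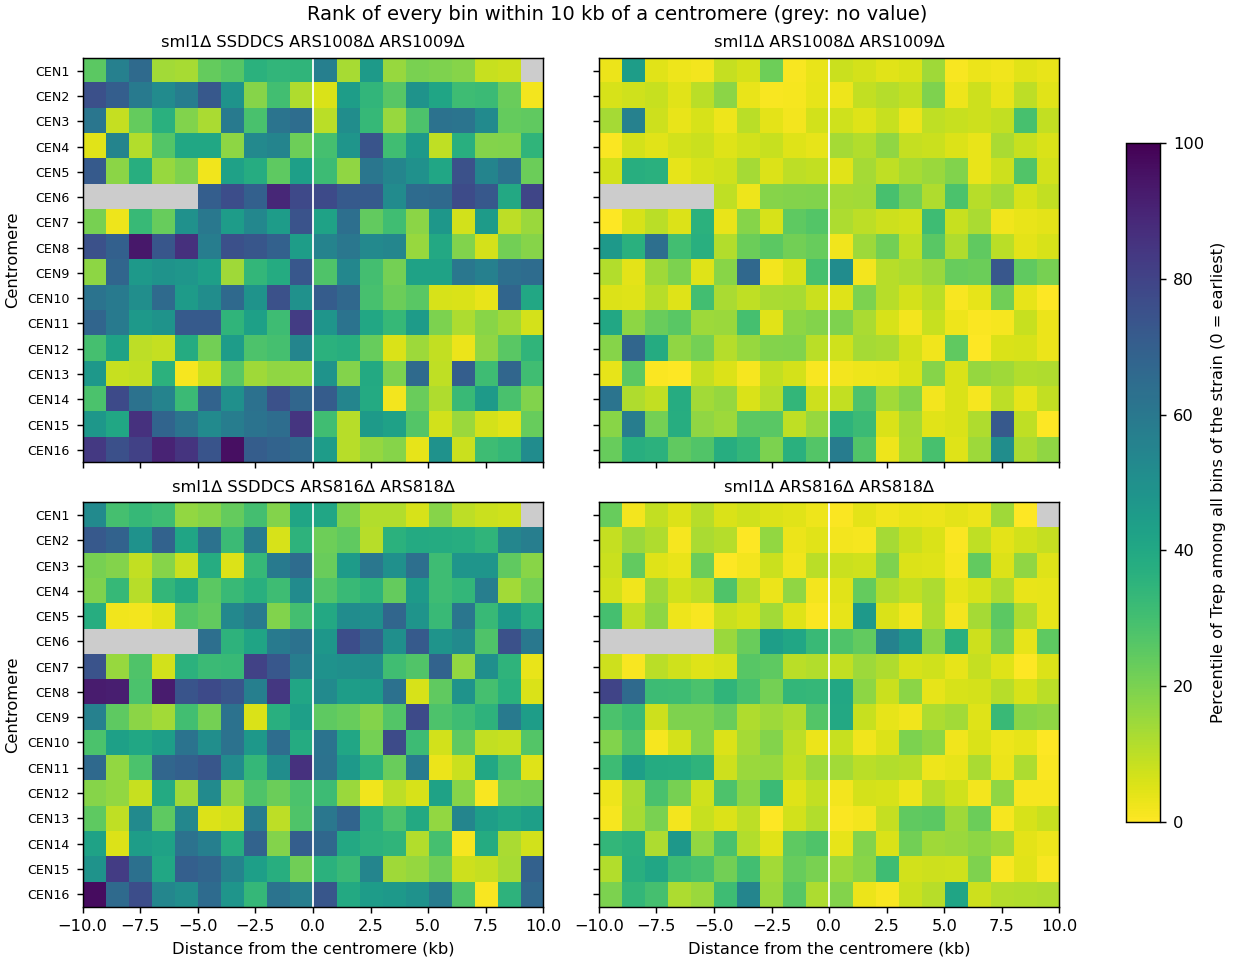
Percentile of Trep among all bins of the strain (colour, 0 is earliest) for every bin within 10 kb of a centromere, by distance from the centromere in kb (x axis) and by centromere (y axis), with bins that have no value in grey. The 2 sml1∆ panels are mostly below the 20th percentile, and the 2 sml1∆ SSDDCS panels span the range, with the bins left of CEN8 and CEN16 and those around CEN6 among the latest.

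Set against the rest of its own chromosome, every centromere was early in the sml1∆ strains. The mean Trep of the bins around a centromere was earlier than the median of the other bins of that chromosome on 16 of 16 chromosomes in sml1∆ ARS1008∆ ARS1009∆ and in sml1∆ ARS816∆ ARS818∆, with median differences of -5.77 and -4.21 min. The difference was largest on chromosome IV in both (-8.44 and -6.14 min) and smallest on chromosome IX in both (-3.45 and -2.77 min). With SSDDCS, centromeres were earlier than the rest of their chromosome on 13 of 16 chromosomes in each background, with median differences of -0.85 and -0.91 min over the 16. The 3 exceptions were chromosomes VI, VIII and XVI in both SSDDCS strains. There the centromere bins were later than the rest of the chromosome by 3.26, 1.052 and 1.37 min in sml1∆ SSDDCS ARS1008∆ ARS1009∆ and by 1.71, 0.72 and 0.71 min in sml1∆ SSDDCS ARS816∆ ARS818∆. The same 3 centromeres had the latest mean Trep over the 4 strains.

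The 16 centromeres differed among themselves by a few minutes. Their mean Trep values spanned 5.01 min in sml1∆ SSDDCS ARS1008∆ ARS1009∆, 3.49 min in sml1∆ ARS1008∆ ARS1009∆, 3.32 min in sml1∆ SSDDCS ARS816∆ ARS818∆ and 3.08 min in sml1∆ ARS816∆ ARS818∆. The median SD over the bins of 1 centromere was 2.205, 1.97, 1.72 and 1.48 min in the same strains, so that neighbours in the order did not differ beyond this spread while its ends did. Across the 16 centromeres the means of the sml1∆ strains had a Spearman rho of 0.894 with each other and those of the SSDDCS strains 0.762, given as a description, since the strains were processed alike and the bins share sequence and mappability. Between the SSDDCS strain and the sml1∆ strain of a background rho was 0.662 (ARS1008∆ ARS1009∆) and 0.559 (ARS816∆ ARS818∆).

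**Figure D3:**
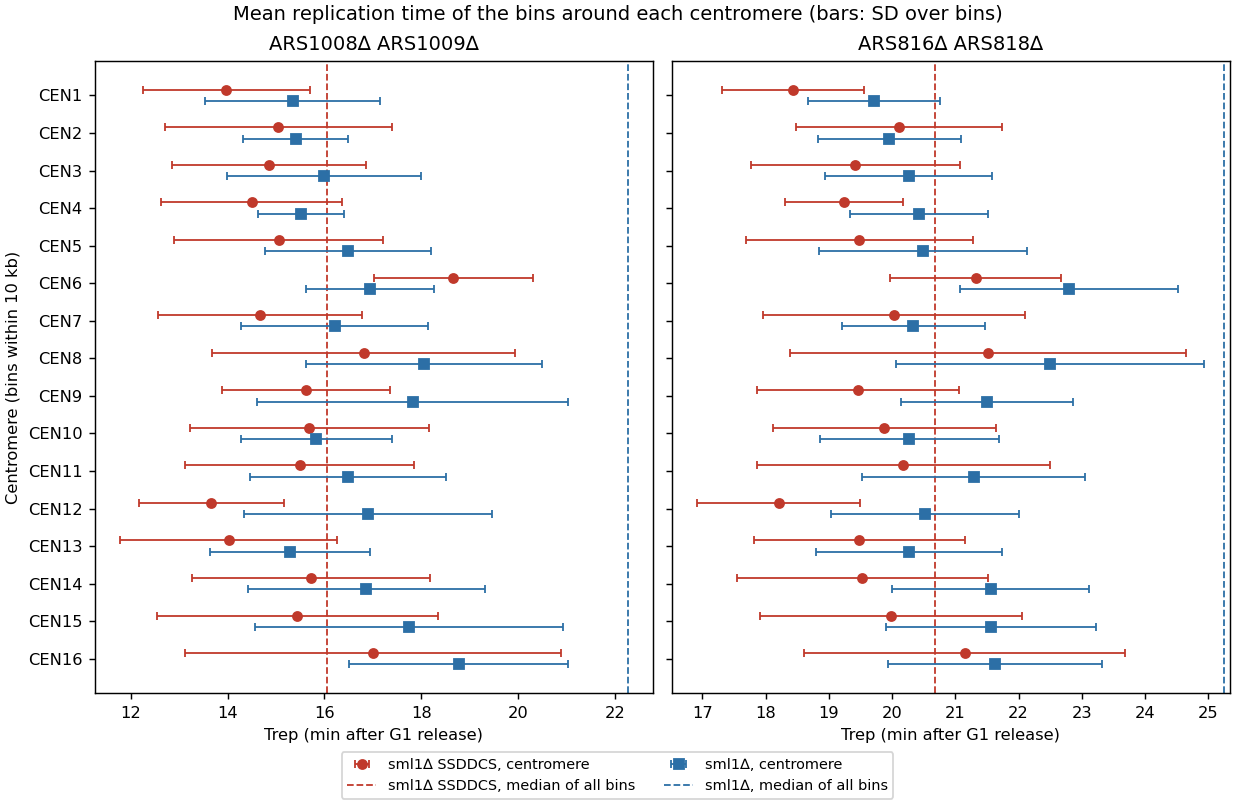
Mean Trep in minutes after G1 release (x axis) of the bins within 10 kb of each centromere (y axis) in the sml1∆ SSDDCS strain (circles) and the sml1∆ strain (squares) of each background, with the SD over bins as bars and the median of all bins of a strain as a dashed line. All sml1∆ squares lie left of their own dashed line at 22.3 and 25.2 min, whereas the circles of CEN6, CEN8 and CEN16 lie right of theirs at 16.1 and 20.7 min.

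CEN1 was the earliest over the 4 strains, with a mean of 16.9 min. Its 20 bins averaged 14.0 ± 1.73 min in sml1∆ SSDDCS ARS1008∆ ARS1009∆, 15.3 ± 1.81 min in sml1∆ ARS1008∆ ARS1009∆, 18.4 ± 1.12 min in sml1∆ SSDDCS ARS816∆ ARS818∆ and 19.7 ± 1.045 min in sml1∆ ARS816∆ ARS818∆ (SD over bins, here and for the centromeres below). It has an annotated origin on each side, ARS108 at 3.94 kb and ARS101 at 8.52 kb, and the bins around ARS101 were at 11.8 min in sml1∆ SSDDCS ARS1008∆ ARS1009∆ and 17.0 min in sml1∆ SSDDCS ARS816∆ ARS818∆. One bin at this centromere could be fitted in sml1∆ ARS1008∆ ARS1009∆ alone. CEN13 followed at 17.3 min, with 14.0 ± 2.24 min, 15.3 ± 1.65 min, 19.5 ± 1.66 min and 20.3 ± 1.47 min in the same order of strains. It was the earliest of all in sml1∆ ARS1008∆ ARS1009∆. ARS1310 lies 18.8 kb to its right. Its nearest origin, ARS1309 at 4.87 kb on the left, had a Trep of 12.6 min in the sml1∆ SSDDCS strain of that background and 14.1 min in its sml1∆ strain. CEN12, also 17.3 min, was the earliest in both SSDDCS strains but ranked 11 and 9 of 16 in the sml1∆ strains, with 13.7 ± 1.498 min, 16.9 ± 2.56 min, 18.2 ± 1.29 min and 20.5 ± 1.49 min. ARS1207 lies 12.2 kb to its left, ARS1208 0.32 kb and ARS1209 5.92 kb to its right. The bins around ARS1209 had a Trep of 12.1 min in sml1∆ SSDDCS ARS1008∆ ARS1009∆, against 15.1 min in sml1∆ ARS1008∆ ARS1009∆.

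CEN6 was the latest over the 4 strains at 19.9 min, from 15 bins. It averaged 18.7 ± 1.64 min in sml1∆ SSDDCS ARS1008∆ ARS1009∆, 16.9 ± 1.32 min in sml1∆ ARS1008∆ ARS1009∆, 21.3 ± 1.35 min in sml1∆ SSDDCS ARS816∆ ARS818∆ and 22.8 ± 1.73 min in sml1∆ ARS816∆ ARS818∆. The centromere bins of chromosome VI had the lowest ratio of the 16 at 15 min in all 4 strains (1.30, 1.27, 1.15 and 1.03). Its nearest annotated origins are farther away than for most centromeres, ARS605 at 12.5 kb and ARS606 at 19.1 kb. The bins between 10 and 20 kb from CEN6 were earlier than those within 5 kb in every strain, with 13.8 against 18.9 min in sml1∆ SSDDCS ARS1008∆ ARS1009∆ as the widest gap and 15.6 against 17.1 min in sml1∆ ARS1008∆ ARS1009∆ as the narrowest. CEN8, at 19.7 min, averaged 16.8 ± 3.12 min, 18.1 ± 2.44 min, 21.5 ± 3.13 min and 22.5 ± 2.44 min in the same order of strains. It has no annotated origin within 20 kb on its left side and ARS806 at 10.7 kb on its right, and its left bins were later than its right bins in all 4 strains, at 19.1 against 14.6 min, 19.6 against 16.5 min, 23.6 against 19.5 min and 24.1 against 20.9 min. CEN16, at 19.6 min, averaged 17.0 ± 3.89 min, 18.8 ± 2.26 min, 21.2 ± 2.54 min and 21.6 ± 1.69 min. It too has no annotated origin within 20 kb on the left. Its left bins were later than its right bins, which hold ARS1622 and ARS1634, in all 4 strains. In the same order of strains they were at 20.2 against 13.7 min, 19.4 against 18.1 min, 22.1 against 20.2 min and 22.5 against 20.8 min.

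CEN4, beside the trp1 locus that holds the Sld2 and Dpb11 construct, was the fourth earliest. It averaged 14.5 ± 1.87 min in sml1∆ SSDDCS ARS1008∆ ARS1009∆, 15.52 ± 0.888 min in sml1∆ ARS1008∆ ARS1009∆, 19.2 ± 0.932 min in sml1∆ SSDDCS ARS816∆ ARS818∆ and 20.4 ± 1.09 min in sml1∆ ARS816∆ ARS818∆, and its SD over bins was the smallest of the 16 in sml1∆ ARS1008∆ ARS1009∆ and in sml1∆ SSDDCS ARS816∆ ARS818∆. Its nearest origins, ARS415 at 14.6 kb and ARS1 at 12.8 kb, are outside the window. CEN10, on the chromosome that lacks ARS1008 and ARS1009 in 2 of the strains, averaged 15.7 ± 2.47 min, 15.8 ± 1.56 min, 19.9 ± 1.77 min and 20.3 ± 1.42 min in the same order, and its difference between the SSDDCS and the sml1∆ strain was among the smallest. Its nearest annotated origins are ARS1014 at 19.03 kb on the left and ARS1015 at 6.41 kb on the right. The remaining centromeres had means over the 4 strains of 17.6 to 18.7 min, in the order CEN2, CEN3, CEN7, CEN5, CEN11, CEN14, CEN9 and CEN15, with steps between neighbours that were smaller than the SD over the bins of either.

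The comparison of SSDDCS over-expression with its absence asks how far an excess of these limiting factors moves DNA that already replicates early. The centromere bins moved little. In the ARS1008∆ ARS1009∆ background the median difference in Trep, sml1∆ SSDDCS minus sml1∆, was -1.26 min over 314 centromere bins, where the median of all bins was -5.50 min. In the ARS816∆ ARS818∆ background it was -1.15 min over 314 bins, where the median of all bins was -4.18 min. The centromere bins were thus 4.24 and 3.03 min less advanced than the genome as a whole. At the chromosome ends, known to be among the late regions of the genome, the 303 bins with values within 20 kb of an end had median differences of -10.1 and -7.04 min. In the sml1∆ strains of these backgrounds the median percentile of the end bins was 68.8 and 60.1.

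Counted bin by bin, 208 of 314 centromere bins (66.2%) were earlier with SSDDCS in the ARS1008∆ ARS1009∆ background, against 89.7% of all bins tested, and 114 (36.3%) were earlier by over 2 min, against 78.0% of all bins. In the ARS816∆ ARS818∆ background 220 of 314 (70.1%) were earlier, against 89.1% of all bins, and 100 (31.8%) by over 2 min, against 72.3%. Relative to the median difference of all bins, 289 (92.0%) and 291 (92.7%) of the centromere bins were less advanced, against 50.0% of all bins in both backgrounds by construction. Bins whose Trep was earlier in both SSDDCS strains than in both sml1∆ strains numbered 25 of 314 (7.96%), against 54.3% of all bins, and 1 centromere bin was later in both SSDDCS strains than in both sml1∆ strains, against 0.495% of all bins. The count of 25 rests on the times as fitted, and it was 53 without the 20 min timepoint and 2 after the median of all bins was taken from each strain. No share of all bins was set beside the counts of 53 and 2. The call also depends on the offset between time courses. The median of the centromere bins was 19.6 min in sml1∆ SSDDCS ARS816∆ ARS818∆ and 16.1 min in sml1∆ ARS1008∆ ARS1009∆.

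Early replication as such went with a smaller advance, so the centromere bins were also set beside other early bins. Bins over 20 kb from any centromere that were in the earliest 20% of the sml1∆ strain of the other background, a choice that uses neither of the strains compared, had median differences of -3.23 min in ARS1008∆ ARS1009∆ (1809 bins, SD 3.72 min) and -2.58 min in ARS816∆ ARS818∆ (1805 bins, SD 2.74 min). Centromere bins chosen by the same criterion had -1.45 min (240 bins) and -1.10 min (244 bins). These centromere bins were the earlier of the 2 sets without SSDDCS, with medians of 15.8 and 20.4 min against 17.2 and 21.5 min, and the later with SSDDCS, with medians of 14.5 and 19.5 min against 13.9 and 18.8 min. In the SSDDCS strains the median percentile was 33.9 and 34.7 for the centromere set, against 26.9 and 26.3 for the other early bins. No test was made of this difference, since bins of 1 culture are not replicates.

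Per centromere, the difference was small and mostly negative. The 16 centromeres of a strain share 1 time course, so a shift of a whole course moves them together. Between the 2 backgrounds, time courses of the same SSDDCS status differed at the centromere bins by medians of -4.40 min with SSDDCS and -4.53 min without. The mean difference was negative at 15 of 16 centromeres in each background, averaging -1.22 ± 1.08 min in ARS1008∆ ARS1009∆ and -1.10 ± 0.679 min in ARS816∆ ARS818∆ (SD over 16 centromeres). It exceeded the SD over the bins of the same centromere at 1 centromere in ARS1008∆ ARS1009∆ (CEN12) and at 3 in ARS816∆ ARS818∆ (CEN1, CEN9 and CEN12). The rest of the chromosome was advanced further on 16 of 16 chromosomes in both backgrounds, by medians between -7.54 min (chromosome XIV) and -3.71 min (chromosome III) in ARS1008∆ ARS1009∆ and between -6.01 min (chromosome XIV) and -2.82 min (chromosome V) in ARS816∆ ARS818∆. The gap between the centromere and its chromosome was narrowest at CEN12 in both backgrounds, 1.64 and 1.62 min, and widest at CEN6 (8.25 min) in ARS1008∆ ARS1009∆ and at CEN2 (5.02 min) in ARS816∆ ARS818∆.

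**Figure D4:**
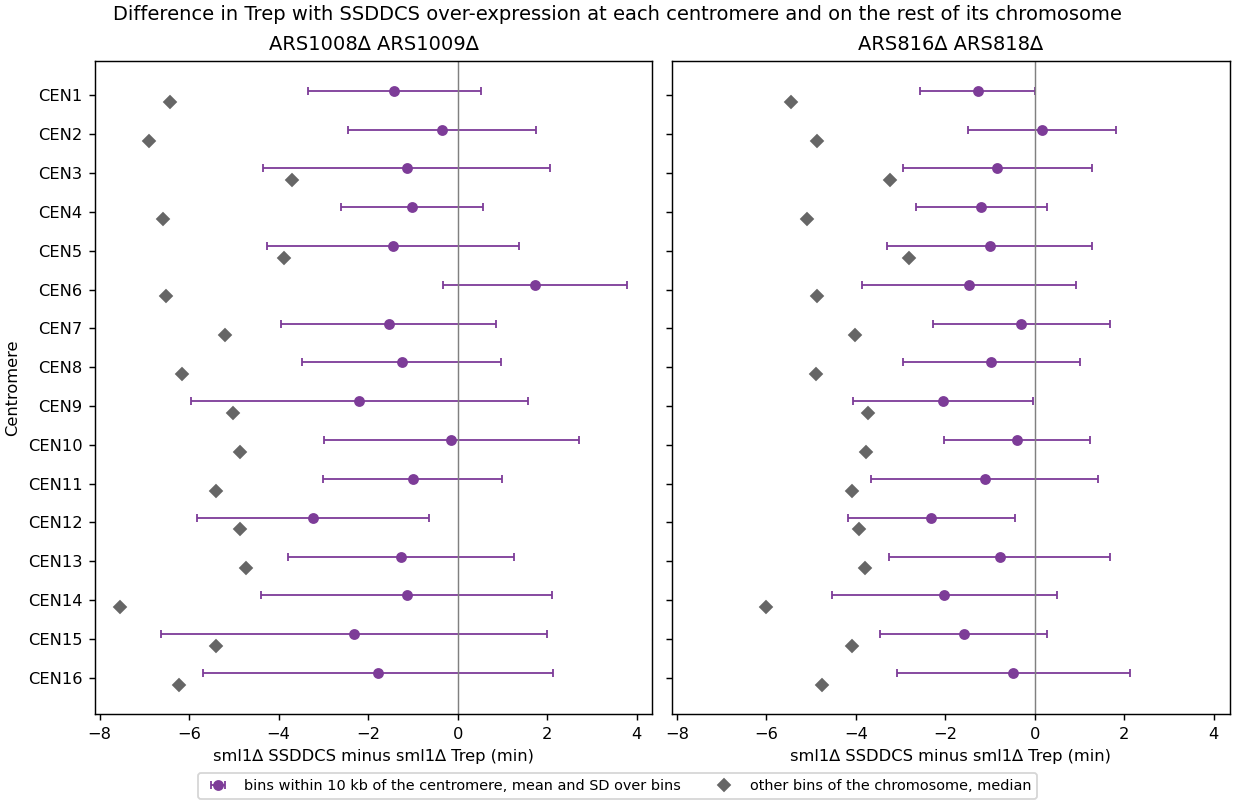
Difference in Trep in minutes, sml1∆ SSDDCS minus sml1∆ (x axis, negative is earlier with SSDDCS), of the bins within 10 kb of each centromere (circles, mean and SD over bins) and of the other bins of the same chromosome (diamonds, median) in each background. Every circle lies right of its diamond, and the circles sit between -3.23 and 1.72 min in ARS1008∆ ARS1009∆ and between -2.31 and 0.157 min in ARS816∆ ARS818∆.

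The centromeres with the largest advance were CEN12, CEN9 and CEN15. CEN12 differed by -3.23 ± 2.59 min in ARS1008∆ ARS1009∆ (18 of 20 bins earlier) and by -2.31 ± 1.86 min in ARS816∆ ARS818∆ (19 of 20 bins). CEN9 differed by -2.20 ± 3.77 min and -2.04 ± 2.01 min, and CEN15 by -2.32 ± 4.32 min and -1.59 ± 1.87 min. The nearest annotated origins of CEN9 are ARS919 at 13.6 kb on the left and ARS920 at 1.63 kb on the right, and those of CEN15 are ARS1512 at 17.0 kb and ARS1513 at 10.9 kb. CEN9 and CEN15 were late among the centromeres without SSDDCS, at 17.8 and 17.8 min in sml1∆ ARS1008∆ ARS1009∆, whereas CEN8 and CEN16, which were later still there, differed by -1.25 ± 2.22 and -1.78 ± 3.91 min. Averaged over both backgrounds, the differences nearest to 0 were at CEN2, CEN10 and CEN6, in the case of CEN6 because its values have opposite signs. CEN10 differed by -0.14 ± 2.85 min and -0.40 ± 1.62 min, with 10 of 20 bins earlier in each background. CEN2, with ARS208 at 0.41 kb on the left and ARS209 at 16.8 kb on the right, averaged 15.1 ± 2.35 min with SSDDCS and 15.4 ± 1.08 min without in ARS1008∆ ARS1009∆, and 20.1 ± 1.63 min with SSDDCS and 20.0 ± 1.14 min without in ARS816∆ ARS818∆. Its differences of -0.35 ± 2.10 and 0.16 ± 1.65 min are a small part of the spread over its bins. Without the 20 min timepoint CEN2 differed by -1.24 and 0.47 min and CEN10 by -0.78 and 0.13 min. CEN6 had differences of opposite sign, 1.72 ± 2.06 min with 4 of 15 bins earlier in ARS1008∆ ARS1009∆ (0.314 min without the 20 min timepoint) and -1.47 ± 2.40 min with 10 of 15 bins earlier in ARS816∆ ARS818∆, and was followed in the size of its difference between backgrounds by CEN16 and CEN7. CEN16 differed by -1.78 ± 3.91 and -0.48 ± 2.60 min, and CEN7, with ARS719 and ARS720 at 11.9 kb on either side, by -1.54 ± 2.39 and -0.30 ± 1.98 min. Leaving out the 20 min timepoint also moved CEN8 in ARS1008∆ ARS1009∆ to -2.11 min and, in ARS816∆ ARS818∆, CEN8 to -0.65 min, CEN7 to 0.10 min and CEN16 to -0.26 min.

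Annotated origins near centromeres were early among origins in the sml1∆ strains and not in the SSDDCS strains. Of the 352 annotated origins, 16 lie within 10 kb of a centromere, at 11 of the 16 centromeres. Trep at an origin was the mean of the bins within 2 kb of it. In sml1∆ SSDDCS ARS1008∆ ARS1009∆ these 16 origins had a median Trep of 14.1 ± 1.39 min, against 12.7 ± 2.22 min at 322 other origins, and in sml1∆ ARS1008∆ ARS1009∆ 15.4 ± 1.77 min, against 20.2 ± 4.85 min at 321 others. In sml1∆ SSDDCS ARS816∆ ARS818∆ they were at 18.3 ± 0.918 min, against 18.1 ± 1.76 min at 320 others, and in sml1∆ ARS816∆ ARS818∆ at 20.0 ± 0.806 min, against 23.3 ± 3.24 min at 321 others. In the sml1∆ strains 15 and 16 of the 16 were earlier than the median of other origins, and in the SSDDCS strains 4 and 6 were. All 16 were earlier with SSDDCS than without in both backgrounds, as were 321 of 321 and 317 of 320 other origins. The median difference was -2.03 ± 1.18 min in ARS1008∆ ARS1009∆, against -6.96 min at other origins, and -1.72 ± 0.756 min in ARS816∆ ARS818∆, against -4.75 min at other origins. The smallest advances were at ARS308, which overlaps CEN3 (-0.38 and -0.19 min). The largest in ARS1008∆ ARS1009∆ were at ARS1622 (-4.12 min) and ARS1634 (-3.94 min) beside CEN16, whose 2-kb windows overlap. In ARS816∆ ARS818∆ these origins differed by -1.72 and -2.25 min, and the largest advance was at ARS1426 beside CEN14 (-2.94 min).

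The centromere bins also share features that the choice by distance did not use. Of the 315 bins, 46.0% lie within 5 kb of an annotated origin, where 25.2% of the other bins do, and the median distance to the nearest origin was 5.64 kb against 11.1 kb. Their GC content was 37.2 ± 3.08%, against 38.3 ± 3.304% in the other bins (SD over bins). Nearness to an origin separated the centromere bins more with SSDDCS than without. The median of centromere bins within 5 kb of an origin, less that of centromere bins farther away, was -2.60 min (ARS1008∆ ARS1009∆) and -1.61 min (ARS816∆ ARS818∆) with SSDDCS and -1.01 and -1.06 min without. Among all other bins the same differences were -4.04 and -3.20 min with SSDDCS and -3.37 and -2.88 min without. Centromere bins over 5 kb from any annotated origin were early in the sml1∆ strains, at medians of 16.6 and 21.3 min, against 23.3 and 26.1 min for other bins over 5 kb from an origin. The part of origin density in the difference between centromere bins and other bins was otherwise not tested.

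The profile around the centromere had a different shape with and without SSDDCS. Trep less the genome median averaged -5.75 and -4.32 min within 5 kb of the centromere in the sml1∆ strains (ARS1008∆ ARS1009∆ and ARS816∆ ARS818∆), -5.58 and -4.12 min at 10 to 15 kb, -3.03 and -2.01 min at 25 to 30 kb, and 0.01 and -0.01 min at 55 to 60 kb. In the SSDDCS strains it averaged -0.50 and -0.62 min within 5 kb, -1.28 and -1.38 min at 10 to 15 kb, and 1.11 and 0.65 min at 25 to 30 kb. At 55 to 60 kb it averaged 2.19 and 1.67 min in these strains, with 12 of 16 chromosomes later than the genome median in each. On average the bins at 10 to 15 kb were thus earlier than the innermost ones with SSDDCS, but not at every centromere. The bins within 5 kb were later than those at 10 to 20 kb at 8 and 11 of 16 centromeres with SSDDCS and at 6 and 5 without. Across the edge of the chosen window the change differed by side and strain. On the left the bins just outside were earlier in all 4 strains. On the right they were later in every strain except sml1∆ SSDDCS ARS816∆ ARS818∆. Averaged by distance, the bins just inside it on the right (8 to 10 kb) were at 14.2, 15.6, 19.2 and 19.8 min and those just outside (10 to 12 kb) at 14.5, 16.5, 18.7 and 20.8 min in sml1∆ SSDDCS ARS1008∆ ARS1009∆, sml1∆ ARS1008∆ ARS1009∆, sml1∆ SSDDCS ARS816∆ ARS818∆ and sml1∆ ARS816∆ ARS818∆. On the left the bins just inside were at 16.01, 17.9, 20.5 and 22.0 min and those just outside at 15.7, 17.4, 19.8 and 21.5 min.

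**Figure D5:**
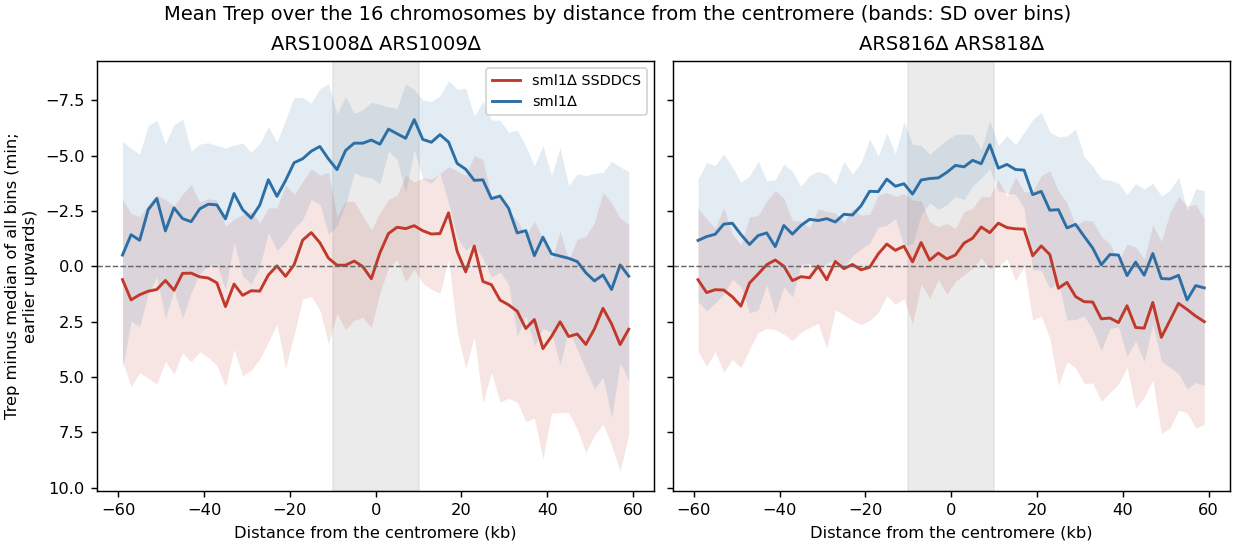
Mean Trep minus the median of all bins of the strain in minutes (y axis, earlier upwards) by distance from the centromere in kb (x axis, low to high chromosome coordinate), for the sml1∆ SSDDCS and the sml1∆ strain of each background, with the SD over bins as bands and the chosen window in grey. Averaged over both sides within 5 kb, the sml1∆ curves are at -5.75 and -4.32 min and the SSDDCS curves at -0.50 and -0.62 min. The sml1∆ curves are highest 9 kb right of the centromere (mean Trep 15.6 and 19.8 min). The SSDDCS curves differ between the sides, with a mean Trep in ARS1008∆ ARS1009∆ of 16.6 min at -1 kb and 14.6 min at 3 kb, where the median of all bins is 16.1 min.

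The backgrounds were compared last, with the genome-wide difference between time courses taken out, because the deleted origins lie far from every centromere. With SSDDCS the median difference at the centromere bins, ARS1008∆ ARS1009∆ minus ARS816∆ ARS818∆, was -4.40 min, against -4.65 min for all bins, which leaves 0.26 min (0.07 min without the 10 min timepoint). Without SSDDCS it was -4.53 min, against -3.50 min for all bins, which leaves -1.03 min, with 15 of 16 centromeres negative and CEN16 at 0.64 min, and which was -0.27 min without the 20 min timepoint. Relative to the median of all bins, 137 of 314 centromere bins (43.6%) were earlier in ARS1008∆ ARS1009∆ with SSDDCS and 217 of 314 (69.1%) without, against 50.0% of all bins by construction in both. The largest values were at CEN6 in both comparisons, 1.998 ± 2.36 min with SSDDCS and -2.35 ± 1.09 min without. These values at CEN6 are as large as most differences between the SSDDCS and the sml1∆ strain at single centromeres. CEN8 and CEN10, on the chromosomes of the deletions, had values of -0.06 ± 3.04 and 0.47 ± 2.33 min with SSDDCS and -0.94 ± 2.51 and -0.94 ± 1.75 min without, within the range of the other centromeres.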

How the data were processed

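Strains were sampled once each. The authors mapped reads to the S288C genome R64-2-1 (sacCer3) with Bowtie2; the submitters' processing notes name Bowtie2 2.3.4, SAMtools 1.7.2 and bedtools 2.26.0. Per 1-kb bin the deposited value is a ratio, in which reads at a timepoint were divided by those in the matching G1 sample and multiplied by the bulk DNA content from flow cytometry, itself deposited as a ratio. Any mistake in that content shifts a whole sample. The files used here, 44 in all with 11312 to 11328 bins each, give no counts, so the depth is unknown and no counting interval was given. The G1 samples enter only through the ratios.

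For every bin, least squares gave the logistic curve between 1 and 2 (scipy 1.17.1, numpy 2.4.6, pandas 2.3.3, Python 3.11.15) where at least 6 values were present, and Trep between 0 and 60 min was kept. Last bins of all chromosomes fell within the lengths of the RefSeq R64 assembly. The fit was tested on simulated data of 11321 bins modelled on sml1∆ ARS1008∆ ARS1009∆, with shifts planted in a small part of the bins. It recovered a shift of 2 min as 2.15 ± 2.03 min and one of 6 min as 5.87 ± 2.30 min (median and SD over the shifted bins). Bins without a shift gave 0.0144 ± 2.10 min. The simulated noise was independent between bins and held no error of a whole sample. Each strain is 1 time course, so comparisons are descriptions without p-values. Members and lists were chosen with earlier results of these data known. By rule all 16 centromeres are described, and given in full, with the nearest annotated origin within 20 kb on each side, are the 3 earliest and 3 latest, the 3 with the largest and smallest SSDDCS difference, the 3 that differ most between backgrounds, and CEN4, CEN8 and CEN10 for their position. Single bins named in the closing section were chosen after their values were seen. Other curve forms, filters, windows, time points and a GC correction were tried as alternatives.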

Additional observations from a re-analysis of the deposited data

Results flagged for a closer look

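At 2 centromeres the difference between the sml1∆ SSDDCS and the sml1∆ strain had opposite signs in the ARS1008∆ ARS1009∆ and ARS816∆ ARS818∆ backgrounds, and neither contrast between backgrounds was tested, since each strain was followed once. At CEN6 the difference was 1.72 ± 2.06 min in ARS1008∆ ARS1009∆ and -1.47 ± 2.40 min in ARS816∆ ARS818∆ (SD over 15 bins), which is 3.20 min apart. The value in ARS1008∆ ARS1009∆ was 0.314 min without the 20 min timepoint and -0.291 min with all bins within 20 kb of CEN6, and the 5 bins with no value lie on its left side. At CEN2 the difference was -0.35 ± 2.10 min in ARS1008∆ ARS1009∆ and 0.157 ± 1.65 min in ARS816∆ ARS818∆ (SD over 20 bins), which is -0.511 min apart and a small part of the spread over bins. The value in ARS816∆ ARS818∆ was negative under 6 of 18 alternatives, with -0.511 min over the bins within 5 kb as the lowest.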

How the results depend on the processing

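No paired analysis was possible because each strain was followed once and the replicate number of every sample is 1. An estimate of the bulk values from the fit was not run, because on simulated data it missed planted departures of 0.05 by up to 0.0359. No summary value over the centromere bins changed sign, and timepoints left out aside, 24 values moved and 157 did not (shares beyond the 95% Wilson interval of their counts, the count of bins by over 1.5 times, others by over 1 SD). At single centromeres the SSDDCS difference changed sign under 1 to 6 of 18 alternatives at CEN6 and CEN10 (ARS1008∆ ARS1009∆) and at CEN2, CEN3, CEN7, CEN10 and CEN11 (ARS816∆ ARS818∆). The number of centromeres earlier with SSDDCS was 14 to 16 in ARS1008∆ ARS1009∆ and 13 to 16 in ARS816∆ ARS818∆. The share of centromere bins in the earliest 20% moved to 19.4% with the first crossing of 1.5 and 18.0% within 5 kb in sml1∆ SSDDCS ARS1008∆ ARS1009∆, to 16.1% within 5 kb in sml1∆ SSDDCS ARS816∆ ARS818∆, to 82.0% within 5 kb and 87.6% with a moving average over 5 bins in sml1∆ ARS1008∆ ARS1009∆, and to 86.0% with that average in sml1∆ ARS816∆ ARS818∆. For the earliest 10% the shares were 9.55% and 11.1% in the SSDDCS strains and 50.5% and 48.1% in the sml1∆ strains of the same backgrounds. The count of bins earlier in both SSDDCS strains than in both sml1∆ strains, 25 of 314, was 6 when the upper asymptote was left free, 6 with the moving average and 9 by first crossing. It was 9 for a lead of over 2 min and 2 after each strain's genome-wide median was taken out. Within 5 kb, where 161 bins lie, the count was 8, and within 20 kb, a window with more bins, it was 65. No share of all bins was set beside these alternative counts, so they describe the settings only. The relative copy number over 10 to 25 min was 1.054 in sml1∆ SSDDCS ARS1008∆ ARS1009∆, 1.37 in sml1∆ ARS1008∆ ARS1009∆ and 1.49 in sml1∆ ARS816∆ ARS818∆ when 1 was taken from every ratio first, and in these sml1∆ strains 1.048 and 1.02 over 10 to 15 min and 1.20 and 1.16 over 20 to 25 min. Apart from the alternatives' own construction (other windows, thresholds or times), the cause of these moves was not tested. Leaving out each timepoint in turn gave 68.3 to 79.4% for the share in sml1∆ ARS1008∆ ARS1009∆ (lowest without 20 min), -1.19 to -0.272 min for the difference between backgrounds without SSDDCS (smallest without 20 min), 20 to 53 for the count of bins (highest without 20 min), and 1.08 to 1.17 and 1.053 to 1.11 for the relative copy number in sml1∆ ARS1008∆ ARS1009∆ and sml1∆ ARS816∆ ARS818∆ (lowest without 20 and 25 min). With 1 culture per strain, unknown depth and ratios already scaled by the bulk values, the spread between cultures is not known. A difference of about 1 min between strains, at a single centromere or over all 16, therefore cannot be told apart from variation between cultures. The SD over its bins describes single bins and not the uncertainty of their mean.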

Other observations

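The sides of the centromeres were not alike. Bins on the side of higher chromosome coordinates were earlier than those on the other side at 12 of 16 centromeres in sml1∆ SSDDCS ARS1008∆ ARS1009∆, 11 in sml1∆ ARS1008∆ ARS1009∆, 10 in sml1∆ SSDDCS ARS816∆ ARS818∆ and 13 in sml1∆ ARS816∆ ARS818∆, with median differences, right minus left, of -1.23, -0.62, -1.01 and -0.79 min. The right side was the earlier in all 4 strains at 9 centromeres (CEN1, CEN7, CEN8, CEN10, CEN11, CEN12, CEN14, CEN15 and CEN16) and the left side at 1 (CEN13). An annotated origin lies within 20 kb on both sides of 12 centromeres, on the right alone at CEN8, CEN11 and CEN16, and on the left alone at CEN5, where the left side was earlier in every strain except sml1∆ ARS1008∆ ARS1009∆.

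Single bins showed the range within these early regions. The bin 9.35 kb right of CEN11, in the open reading frame YKR005C and on the same side as ARS1114 at 7.99 kb, had the lowest mean percentile over the 4 strains (3.70) among bins fitted in all of them, with Trep values of 11.5, 14.5, 16.6 and 18.1 min in sml1∆ SSDDCS ARS1008∆ ARS1009∆, sml1∆ ARS1008∆ ARS1009∆, sml1∆ SSDDCS ARS816∆ ARS818∆ and sml1∆ ARS816∆ ARS818∆. The highest mean percentile (73.3) was 9.10 kb left of CEN8 in STE20, which encodes a kinase of the mating pheromone response, with 19.2, 21.7, 27.0 and 29.3 min in the same order of strains. The bin next to it, also in STE20, was the second highest (65.8).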
